A study of Mus musculus with 12 samples.

Results

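Triceps brachii muscle of mice infused with 20-hydroxyecdysone (20E) for 15 days was compared with that of mice infused with saline for the same time. It used 6 of the study's 12 arrays and 17716 of the 45281 probes on the array. A probe was kept when 3 or more of the 6 arrays gave it a detection p below 0.05, that is, a signal above background. Of these, 15202 carried 1 gene symbol and represented 9800 genes, 7 carried several symbols and 2507 had no listed gene. The animals were male C57BL/6J mice aged 12 weeks, and the infusion came from Alzet osmotic pumps implanted under the skin, which both groups carried. The treated group received 5 mg/kg/day of 20E for 15 days and the control group saline for 15 days. Each group was measured on 3 arrays, and each array held the pooled RNA of 3 animals in equal amounts (1 µg from each). According to the labels, a pool of a saline group lettered B held 2 animals. That letter is not defined in the labels, and if it is the letter that marks the 15-day columns, the pool is among the 3 saline arrays used here. Groups of mice infused for 5 days, with 3 pools each, entered the model only to estimate the spread and to compare the 20E effect between durations.

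20E is the steroid hormone that triggers moulting in insects, and many plants make it as well. Mammals have no ecdysone receptor, and effects on muscle protein synthesis and growth have been ascribed to membrane-linked signalling through the kinases Akt and mTOR and, in other work, to oestrogen receptor beta. The triceps brachii is a forelimb extensor that in the mouse consists mainly of fast fibres, which contract quickly, hold the fast isoforms of myosin, troponin and actinin, and draw much of their energy from glycogen.

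Between 17106 and 18265 probes exceeded background on each of the 6 arrays, and the lowest detected level lay between 5.04 and 5.17. Levels are normalized log2 signals, so that a difference of 1 corresponds to a 2-fold change. Because an offset was added to the signals before the logarithm, the changes of dim probes are understated. The 15 muscle genes used to check the tissue were detected on all 6 arrays, with a median level of 15.7. Pools of the same group differed by a root mean square of 0.38 (median of 6 pairs, range 0.27 to 0.45), and pools of opposite groups by 0.32 (median of 9 pairs, range 0.26 to 0.44). The spread within groups was thus as wide as the distance between them.

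Transcripts of hepatocytes, the secretory cells of the liver, stood apart on 3 of the 6 arrays. The list of these transcripts, written after values had been seen, held 53 genes on the array and 44 among the probes compared. Its mean level was 6.00, 6.00 and 10.23 in the 20E pools and 10.07, 7.84 and 6.05 in the saline pools (replicates 1 to 3 in this order here and throughout). More than 2-fold above the 3 low arrays were 44 of 44 genes on the third 20E pool, 44 of 44 on the first saline pool and 37 of 44 on the second saline pool. Transthyretin (Ttr), a carrier of thyroid hormone in plasma, read 7.61, 7.94 and 12.63 with 20E and 12.36, 9.84 and 7.46 with saline, and apolipoprotein A-I (Apoa1), the main protein of high-density lipoprotein, read 7.18, 7.61 and 12.53 against 12.02, 9.58 and 7.44. The summed normalized signal of the 44 genes, before the logarithm, ran from 4908 to 107621 in the 20E pools and from 5111 to 96923 in the saline pools. Both groups therefore held raised and low arrays. No probe for Alb, Fgb, Otc or Tat was detected on any of the 6 arrays, although Alb and Fgb encode abundant liver products. Results that rest on these 3 arrays are given with and without them.

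No probe differed between 20E and saline muscle after 15 days at an adjusted p under 0.05. In limma with Benjamini-Hochberg adjustment, 0 of 17716 probes were called (0%), and the lowest adjusted p was 0.597. The unadjusted p was below 0.05 for 741 probes (4.18%), where 885.8 would be expected with no effect and independent probes. The estimate was above 0 for 8926 probes (50.4%). Of the 741, 441 (2.49% of all probes) were higher and 300 (1.69%) lower with 20E, so that 59.5% were higher. This split depended on the scaling: with arrays scaled by their medians in place of quantiles, the median difference of all probes moved from 0.0011 to 0.034 and the split became 492 higher and 153 lower (76.3% higher). The ranges of the 2 groups did not overlap for 1828 probes (10.3%), with 994 (5.61%) higher and 834 (4.71%) lower in all 3 pools with 20E. Without the 3 arrays with raised hepatocyte transcripts, 0 probes were called and 3.14% had an unadjusted p below 0.05. With the mean hepatocyte level as a covariate, 0 probes were called and the share was 4.10%.

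Differences were small for most probes. The middle of the distribution ran from a difference of -0.085 (lower quartile) to 0.088 (upper quartile), and the median absolute difference corresponded to 1.06-fold. A change beyond 2-fold was estimated for 15 probes (0.0847%), all of them lower with 20E, and beyond 1.5-fold for 27 higher and 89 lower probes. The highest estimate was 0.84 (1.79-fold higher) and the lowest -2.64 (6.22-fold lower), and neither passed the adjusted test. Without the 3 raised arrays, 2 probes were higher and 21 lower by more than 2-fold.

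**Figure D1:**
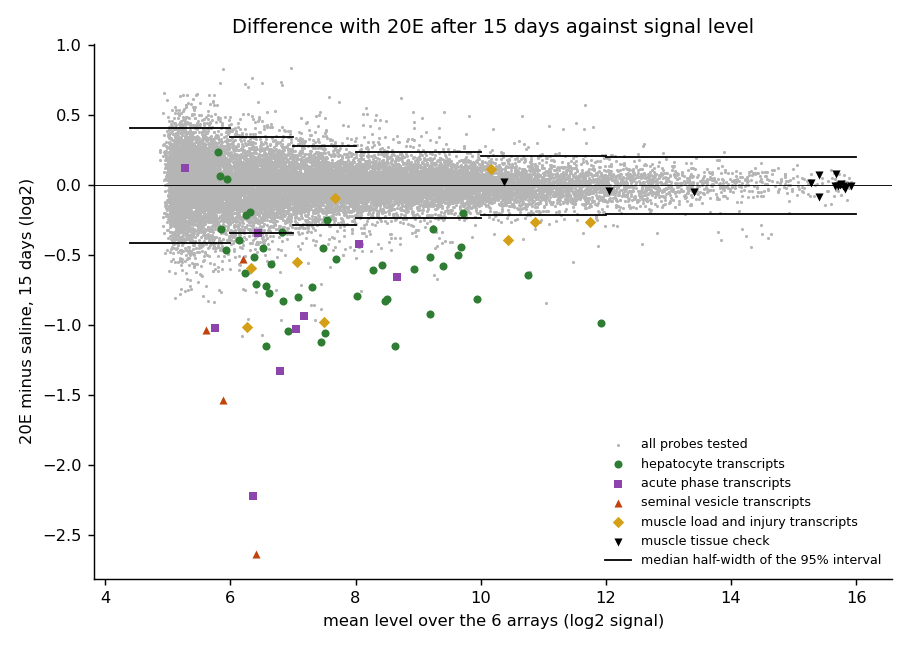
Difference between 20E and saline after 15 days (mean of 3 pools each, log2) against the mean level over the 6 arrays, for 17716 probes (grey). Coloured points mark gene lists by their brightest probe, and black lines give the median half-width of the 95% interval in each range of levels. Probes below -1 lie mostly in the hepatocyte, acute phase and seminal vesicle lists, which were written after values had been seen. The muscle genes, most at levels near 15.7, lie between -0.080 and 0.084.

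How small a change could be excluded depended on brightness. For each probe the 95% interval of the difference was computed, and a fold change was counted as excluded when the whole interval lay inside it in both directions. The median half-width of the interval was 0.41 (1.33-fold) for the 4623 probes with a mean level under 6, whose median raw signal was 138. It narrowed to 0.34 (1.27-fold) at levels of 6 to 7 (3222 probes) and to 0.28 (1.22-fold) at 7 to 8 (2673 probes). At 8 to 10 it was 0.24 (1.18-fold, 4251 probes), and at 10 to 12 it was 0.21 (1.16-fold, 2074 probes). For the 873 probes at 12 and over, with a median raw signal of 7602, the half-width was 0.20 (1.15-fold).

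A 2-fold change was excluded for 96.8% of all probes, a 1.5-fold change for 79.5% and a log2 difference of 0.32 for 32.2%. Among probes under a level of 6 these shares were 94.0%, 52.5% and 2.66%, and at 12 and over they were 99.8%, 97.3% and 78.4%. All refer to normalized differences, in which the offset understates the changes of dim probes, so a larger change of the transcript is not excluded there. On the log2 values that the authors deposited, a 2-fold change was excluded for 81.8% of all probes. In the range of 8 to 10, a 1.5-fold change was excluded for 94.0% and a log2 difference of 0.32 for 53.9%. The share of the dim probes with 1.5-fold excluded rested on the handling of background. It was 97.9% with no background correction and 6.84% on the log2 values that the authors deposited, and it was 12.0% without the 3 raised arrays, which leaves 2 pools against 1. For probes at 12 and over, the same share stayed between 88.9% and 98.2% under all alternatives.

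**Figure D2:**
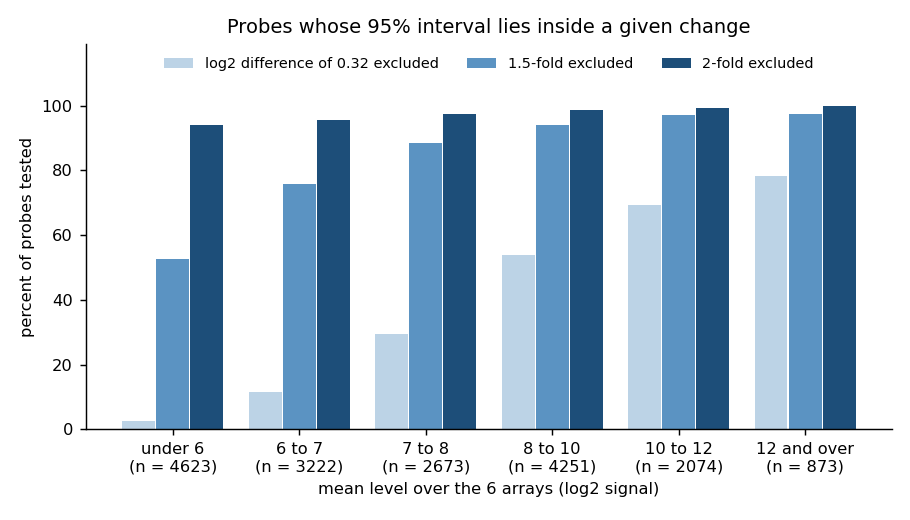
Percent of probes in each range of mean level (log2 signal, number of probes below each range) whose 95% interval lies inside a log2 difference of 0.32, a 1.5-fold or a 2-fold change. The share for 0.32 climbs from 2.66% under a level of 6 to 78.4% at 12 and over, whereas the 2-fold share is at least 94.0% in every range. Changes are those of the normalized signals, which understate the changes of dim probes.

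Unadjusted p-values under 0.05 were more frequent among dim probes. Their share fell from 7.51% under a level of 6 to 4.66%, 3.48%, 2.42%, 1.78% and, at 12 and over, 1.26%. When the prior variance was allowed to follow the level (limma with trend and robust estimation), the shares in the same order were 4.74%, 2.73%, 3.18%, 3.13%, 3.95% and 3.55%. The fall with brightness thus depended on the variance model. The share of probes whose groups did not overlap, which needs no variance model, was 10.1% under a level of 6 and 11.3% at 12 and over. Between 8 and 10, the probes with an unadjusted p under 0.05 comprised 80 higher and 23 lower. These counts were 87 and 2 under median scaling, 94 and 39 with trend variances, and 22 and 15 without the 3 raised arrays.

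Where a gene had several probes, the difference on a dim probe was seldom found on the brighter one. Among 225 probes with an unadjusted p under 0.05 whose gene had a brighter probe in the comparison, 57.3% had the same sign as the brightest, and for 9 the brightest probe also had an unadjusted p below 0.05. Over all 5402 probes with a brighter partner, 55.8% had the same sign. Of the 123 such probes under a level of 6 the share was 48.8%, and of the 28 at 8 and over it was 89.3%. Probes of 1 gene can bind different transcripts, which was not tested.

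Among probes detected on all 6 arrays, the named gene higher with 20E that had the smallest p was Plekha1, which encodes an adaptor protein that binds the lipid PtdIns(3,4)P2 through its pleckstrin homology domain. It read 6.80, 6.73 and 6.67 with 20E and 5.60, 5.97 and 6.31 with saline, a difference of 0.77 (95% interval 0.44 to 1.10; limma, adjusted p = 0.688). All 20E pools exceeded all saline pools on this probe, but the brighter probe of the gene, at a level of 10.97, differed by 0.018. Usp9x, an X-linked deubiquitinase, read 7.05, 6.95 and 6.93 against 6.35, 6.31 and 6.67 (difference 0.53, adjusted p = 0.688). Wiz, a zinc finger partner of the G9a and GLP histone methyltransferases, read 7.16, 6.94 and 7.11 against 6.69, 6.69 and 6.64 (difference 0.39, adjusted p = 0.752). Its second probe differed by 0.21 in the same direction.

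Poglut2, an O-glucosyltransferase of the endoplasmic reticulum, read 6.00, 5.87 and 6.05 with 20E and 5.26, 5.63 and 5.28 with saline, and its brighter probe differed by 0.11 against 0.58 here. Esyt2, an extended synaptotagmin that tethers the endoplasmic reticulum to the plasma membrane, read 7.25, 7.05 and 7.28 against 6.36, 6.46 and 6.59 (difference 0.72), with 0.30 on its second probe. Mrvi1, a partner of cGMP-dependent protein kinase that dampens calcium release in smooth muscle, read 7.15, 7.16 and 7.15 against 6.65, 6.74 and 6.90. In each of these 3 genes the lowest 20E pool lay above the highest saline pool. Cd99l2, an adhesion molecule of endothelium and leucocytes, was higher by 0.50 on a probe at a level of 5.65, while its probes at 9.85 and 11.33 differed by 0.065 and -0.24. Among probes detected on all 6 arrays, named or not, the smallest p belonged to a probe with no listed gene, ILMN_1244672. It read 6.71, 6.55 and 6.55 against 5.77, 5.73 and 6.14 (difference 0.73, adjusted p = 0.597). Without the 3 raised arrays the differences of Plekha1, Usp9x and Mrvi1 were smaller, at 0.45, 0.33 and 0.25 in place of 0.77, 0.53 and 0.39. Those of Esyt2 and Cd99l2 were smaller as well, at 0.56 and 0.40 in place of 0.72 and 0.50. Those of Wiz and Poglut2 were not, at 0.40 and 0.66 in place of 0.39 and 0.58.

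Among named genes lower with 20E and detected on all 6 arrays, Rragb had the smallest p. It encodes a Rag GTPase that brings mTORC1 to the lysosome when amino acids are present, and it read 6.35, 6.33 and 6.21 with 20E and 6.60, 6.85 and 6.94 with saline. The difference was -0.50 (95% interval -0.72 to -0.28; limma, adjusted p = 0.688). Grrp1, glycine/arginine rich protein 1, read 5.80, 5.94 and 5.85 against 6.37, 6.27 and 6.65 (difference -0.57, adjusted p = 0.786). Without the 3 raised arrays the differences of these genes were -0.60 and -0.78.

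Lrba, a vesicle trafficking protein that protects the immune checkpoint receptor CTLA4 from degradation, read 5.49, 5.56 and 5.36 against 5.81, 5.75 and 6.00 (difference -0.38). Its second probe, at a level of 9.32, was lower as well (difference -0.24). Dera, an aldolase that splits deoxyribose phosphate, read 5.46, 5.20 and 5.73 against 5.84, 6.17 and 6.05 (difference -0.56). Zc3hav1, an antiviral zinc finger protein that binds CpG-rich RNA, read 5.58, 5.90 and 5.63 against 6.34, 6.12 and 6.43 (difference -0.59). These genes separated the groups in every pool, as the choice by smallest p favours. Eral1, a GTPase of the mitochondrial small ribosomal subunit, was lower by 0.44 on its dim probe and by 0.027 on a probe at a level of 9.54. Tnks, the poly-ADP-ribose polymerase tankyrase, was lower by 0.60 on its dim probe and by 0.0015 on a probe at 8.04. Tmem218, a protein of the ciliary transition zone, was lower by 0.39 and, on its brighter probe, by 0.021. The adjusted p-values of these 6 genes lay between 0.868 and 0.877.

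**Figure D3:**
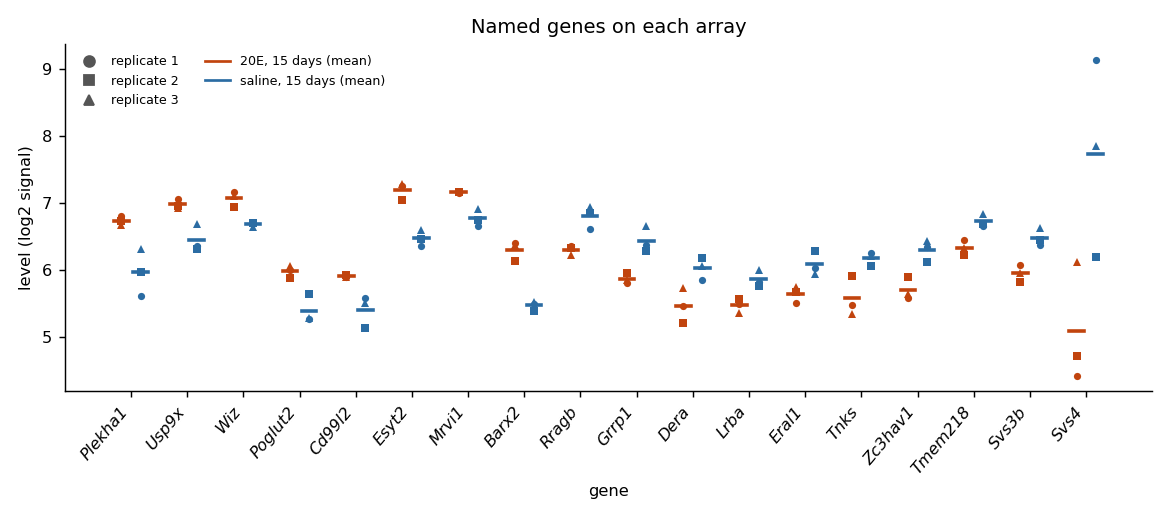
Level (log2 signal) of 18 named genes on each array of 15 days, as points for replicates 1 to 3 and a line for the mean of the group, with 20E in orange and saline in blue. In the first 8 genes every 20E pool lies above every saline pool and in the other 10 below. Barx2 and Svs4 were chosen by the size of their difference and the others by smallest p, which favours such separation. Svs4 spans the widest range, from 4.42 to 9.13.

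By size of the difference, the highest named gene was Barx2, a homeobox factor expressed in myoblasts and satellite cells. It read 6.40, 6.13 and 6.36 with 20E and 5.49, 5.38 and 5.52 with saline, a difference of 0.83 (95% interval 0.40 to 1.26; limma, adjusted p = 0.866). The second Barx2 probe, which was brighter, read 8.26, 8.29 and 7.89 against 7.57, 7.90 and 8.01 and differed by 0.32 with overlapping groups. Ablim3, an actin-binding LIM protein of muscle, read 7.09, 7.21 and 7.23 against 6.09, 6.33 and 6.90 (difference 0.74). Its difference was 0.25 without the 3 raised arrays, and its 4 other probes, all at levels of 5.68 or lower, differed by -0.37 to 0.16.

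The lowest estimates belonged to genes not known as products of muscle fibres. Svs4, an androgen-dependent secretory protein of the seminal vesicle, read 4.42, 4.71 and 6.12 with 20E and 9.13, 6.18 and 7.85 with saline. All saline pools were above all 20E pools, with a difference of -2.64 (95% interval -4.26 to -1.01; limma, adjusted p = 0.912), and without the 3 raised arrays it was -3.28. Svs5, a second seminal vesicle protein, read 4.69, 5.01 and 5.64 against 8.05, 4.62 and 7.27, so that the second saline pool lay below all 20E pools. Its difference of -1.53 was -0.83 without the first saline pool and -2.55 without the second, and became 0.55 among the arrays with running numbers 7 to 12 in the table header, which hold the second saline pool alone of its group. Svs3b was lower in every 20E pool (6.06, 5.82 and 5.95 against 6.36, 6.44 and 6.62). Spink1, a trypsin inhibitor of the seminal vesicle and pancreas, read 4.88, 4.94 and 5.44 against 6.14, 6.01 and 6.21 (difference -1.03). The list of seminal vesicle transcripts, written after values had been seen, held 9 genes on the array and 4 among the probes compared, and 4 of 4 were lower with 20E (median -1.28, against 0.0011 over all probes). Of the 4, 1 was detected on all 6 arrays. Svs4 and Spink1 were detected on 3 saline arrays and 1 20E array, and Svs5 on 2 and 1. The saline arrays alone would have brought Svs4 and Spink1 into the comparison, which favours their direction. The count of 4 is therefore a description only. Its mean level was 5.01, 5.12 and 5.79 with 20E and 7.42, 5.81 and 6.99 with saline.

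Saa1, the acute phase protein serum amyloid A1 made by liver, read 4.46, 4.55 and 6.77 with 20E and 10.56, 7.03 and 4.83 with saline, a difference of -2.22 that became -0.32 without the 3 raised arrays. Fgl1, a liver-derived fibrinogen-like protein, read 5.22, 5.00 and 8.19 against 9.77, 7.43 and 5.17, and Itih3, an inter-alpha-trypsin inhibitor heavy chain, read 4.52, 4.52 and 8.96 against 9.40, 7.19 and 4.86. For these genes too the groups overlapped, and without the 3 raised arrays their differences of -1.32 and -1.15 became -0.064 and -0.34. The hepatocyte list as a whole had a median difference of -0.57 with 41 of 44 genes lower. Without the first saline pool 41 of 44 were higher (median 0.46), and without the 3 raised arrays 19 were higher and 25 lower (median -0.058).

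Lcn2, an iron-siderophore binding protein of the acute phase, was lower in every 20E pool (5.30, 4.82 and 5.62 against 6.88, 6.13 and 5.81). Its difference was -1.02 (limma, adjusted p = 0.876), and -0.74 without the 3 raised arrays. Of the 15 probes estimated to be more than 2-fold lower, 12 belonged to the hepatocyte, acute phase and seminal vesicle lists. These 3 lists were written after values had been seen, so this count is a description and no support for them. Of the others, 2 had no listed gene, and the remaining gene was Rrad, which is described with the load genes.

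**Figure D4:**
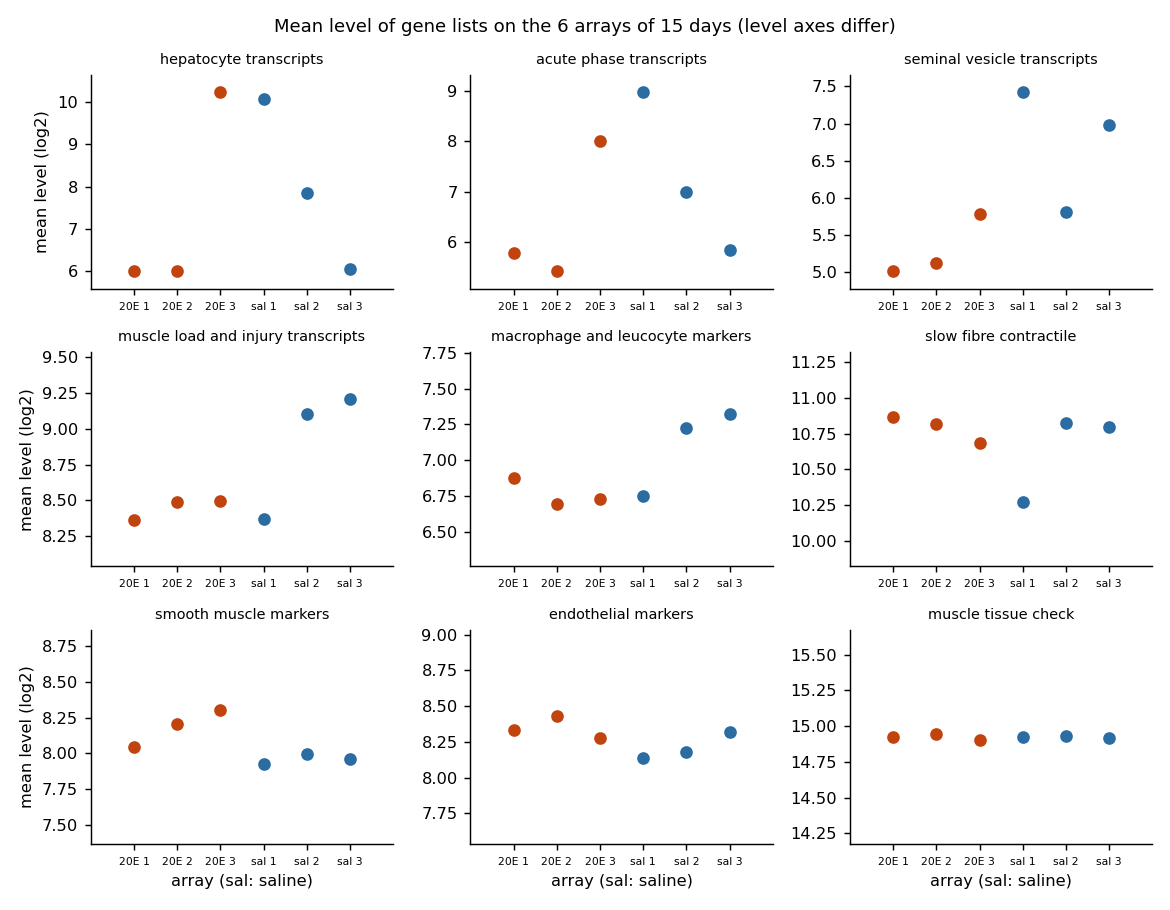
Mean level (log2 signal) of 9 gene lists on each of the 6 arrays of 15 days, with 20E in orange and saline in blue and a level axis of its own for each list. The hepatocyte list reads 10.23 on the third 20E pool and 10.07 on the first saline pool and near 6 on 3 arrays, while the muscle list stays between 14.90 and 14.95.

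Detection was lost or gained by few probes. On all 6 arrays 15124 probes were detected. Detection on all 3 20E arrays and no saline array was seen for 63 probes, and the reverse for 30. All 93 had a mean level under 5.33, and each was in the comparison only because of the group in which it was detected. With a bound computed from the lowest detected level on each undetected array, 62 of the 63 gained probes were at least 1.00- to 1.41-fold higher (median 1.14), and the 30 lost probes at least 1.10- to 1.51-fold lower (median 1.19). These bounds, here and below, compare group means and take no account of the spread between pools. Detection on 3 arrays of a group and 1 of the other occurred for 196 probes with more 20E arrays and 120 with more saline arrays. In all, 1166 probes were detected on more 20E arrays and 978 on more saline arrays. Of all probes on the array, 17467, 17606 and 18265 were detected in the 20E pools and 17780, 17638 and 17106 in the saline pools. The highest count was thus on a 20E array and the lowest on a saline array. Their part in the excess of gained over lost detection was not tested. At the edge of the comparison, 965 probes were detected on exactly 3 arrays (median level 5.12) and 1238 probes outside it on 2 (median level 4.99).

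**Figure D5:**
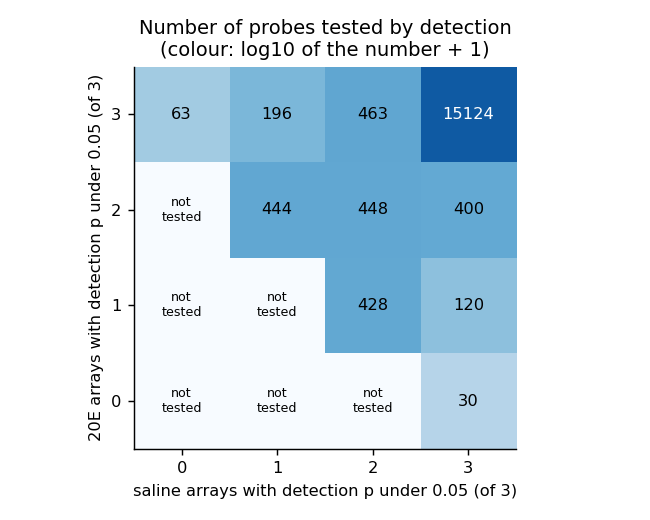
Number of the 17716 probes by how many of 3 saline arrays (horizontal) and 3 20E arrays (vertical) detected them, with colour on a log10 scale. The corners of full gain and full loss hold 63 and 30 probes, against 15124 detected everywhere.

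The commonest of the 20 possible patterns of 3 detected arrays was not a pattern of the infusion. Detection on only the 3 arrays with raised hepatocyte transcripts was seen for 147 of the 965 probes, where the 20 patterns had a median of 41.5 probes (range 19 to 147).

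Among gained probes the largest bound belonged to Atpaf1, an assembly factor of the mitochondrial ATP synthase, which read 5.74, 5.59 and 5.52 with 20E and 4.87, 5.10 and 5.11 with saline. It was at least 1.41-fold higher (limma, adjusted p = 0.688), and after 5 days the same probe was higher by 0.44. Sfrp5, a secreted antagonist of Wnt ligands, read 5.74, 5.50 and 5.38 against 5.03, 5.04 and 5.07 and was at least 1.33-fold higher. Its 5-day difference was -0.23. Olfr786, an olfactory receptor gene, was at least 1.30-fold higher, the unnamed probe ILMN_1242872 at least 1.28-fold and Tagap, a GTPase-activating protein of activated T cells, at least 1.27-fold. The brighter Tagap probe, at a level of 10.12, differed by -0.088.

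Among lost probes, the unnamed ILMN_2699803 was at least 1.51-fold lower. Tyrobp, the signalling adaptor of activating receptors on myeloid and natural killer cells, read 4.97, 4.95 and 5.02 with 20E and 5.29, 5.65 and 6.00 with saline and was at least 1.47-fold lower. Cma1, the chymase of connective tissue mast cells, read 4.82, 5.02 and 4.69 against 5.32, 5.78 and 5.65. It was at least 1.40-fold lower (limma, adjusted p = 0.688). Mcpt4, a second mast cell chymase, was also detected on the 3 saline arrays only and was at least 1.35-fold lower by the group means (limma, unadjusted p = 0.124). In a list of 9 mast cell transcripts, written after values had been seen, 6 were compared and 5 were lower, with -0.16 for the carboxypeptidase Cpa3, and the growth factor receptor Kit was higher by 0.14. Cma1 and Mcpt4 are among the 5 and were compared only because of the saline arrays, which fixed their direction. Of the 6 genes, 1 was detected on all 6 arrays. Mapt, which encodes tau, was at least 1.43-fold lower on this probe, while its 2 brighter probes differed by 0.19 and -0.0034. Without the 3 raised arrays the difference of the lost Mapt probe was -0.34 in place of -0.63.

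C1qtnf3, an adipokine of the C1q and TNF family, appeared in both directions. Its lost probe was at least 1.47-fold lower, with a difference of -0.75 that was -0.45 without the 3 raised arrays, and another probe of the gene was gained, with 5.53, 5.53 and 5.28 against 4.68, 4.93 and 5.12. Of 20 gained genes with another probe in the comparison, the brightest other probe had the same sign for 7, and of 10 lost genes for 4. Among the other lost probes the largest bound was 1.36-fold, for Ubxn8, and among the other gained probes 1.26-fold, for the cystine transporter Slc7a11. Both genes were named after their values had been seen.

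The lists of muscle and signalling genes held 369 genes in 25 lists, of which 331 were on the array and 271 were compared by their brightest probe. None was called (0 of 271; limma, lowest adjusted p = 0.876 for Lcn2), and 9 (3.32%) had an unadjusted p below 0.05, against 4.18% of all probes. The 9 were Myh1, Mbp, Ndufa9 and Acta2, which were higher, and Usp14, Col3a1, Fn1, Hba-a1 and Lcn2, which were lower. Except for Lcn2, their adjusted p was 0.9998 (limma). Under median scaling, only Mbp, Lcn2 and Myh1 of the 9 kept an unadjusted p below 0.05. A 1.5-fold change was excluded for 205 of the 271 (75.6%) and a 2-fold change for 253 (93.4%).

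Muscle structural genes had narrow intervals around 0. For 15 of 15 genes of the muscle check a 1.5-fold change was excluded, with differences between -0.080 and 0.084 (median -0.0030). Creatine kinase M (Ckm) read 15.81, 15.84 and 15.79 with 20E and 15.76, 15.89 and 15.82 with saline, and the bound on its change was 1.13-fold. The glycolytic enzyme enolase 3 (Eno3), the brightest probe with a name, read 15.88, 15.93 and 15.95 against 15.92, 15.92 and 15.93 (bound 1.12-fold). The widest bound in this list was that of nebulin (Neb, 10.37, 10.72 and 10.07 against 10.37, 10.20 and 10.52), at 1.42-fold. Tnnt3, Ttn, Pygm, Acta1, Casq1, Mylpf, Mb, Atp2a1, Tnnc2, Actn3, Pvalb and Tcap had bounds of 1.13- to 1.36-fold. Under median scaling 14 of the 15 were higher, with a median of 0.11. The 10 brightest probes, which also include the ATP synthase subunit Atp5b, differed by -0.10 to 0.050. Quantile normalization ties the top of the distribution together on all arrays, and most genes of the muscle check lie near that top. The median raw signal of Eno3 was 61682, where the highest signals on the 6 arrays ran from 57273 to 66017. Whether such signals were saturated was not tested.

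Fast and slow contractile genes differed in how tightly they could be bounded. A 1.5-fold change was excluded for 13 of 13 fast fibre genes, with a median of -0.014. Myh1, the myosin heavy chain of type IIx fibres, was higher in every 20E pool (13.04, 13.08 and 12.97 against 12.96, 12.63 and 12.82), with a difference of 0.23. Without the second saline pool it was 0.14. Of 12 slow fibre genes 11 were higher with 20E (median 0.19), where 50.4% of all probes were higher, and none had an unadjusted p below 0.05. Casq2, the calsequestrin of slow and cardiac muscle, read 7.51, 7.48 and 7.39 against 6.88, 7.33 and 7.10 (difference 0.36). Tnnc1, the troponin C of slow and cardiac muscle, read 12.04, 11.72 and 11.73 against 11.06, 11.84 and 11.68, with the first saline pool low and the others overlapping. The mean level of the list was 10.87, 10.82 and 10.68 with 20E and 10.27, 10.83 and 10.80 with saline. Without the first saline pool, 9 of 12 were higher and the median was 0.038. A 1.5-fold change was excluded for 2 of the 12 genes and a 2-fold change for 7.

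Growth signalling through IGF1, Akt and mTOR, which drives protein synthesis in muscle, showed 11 genes higher and 13 lower (median -0.011). A 1.5-fold change was excluded for 20 of these 24 genes. Igf1r, the receptor of the growth factor, read 8.30, 8.36 and 8.23 with 20E and 8.17, 8.12 and 8.14 with saline (difference 0.15, bound 1.29-fold). Igf1 itself overlapped between groups (difference -0.19, bound 1.55-fold). The cap-binding translation factor Eif4e read 7.47, 7.03 and 7.25 against 7.57, 7.45 and 7.31 (difference -0.20, bound 1.42-fold). Ribosomal protein S6 (Rps6), a target of S6 kinase, was lower in every 20E pool by a mean of 0.15. Eif2b5, a subunit of the translation factor eIF2B, differed by 0.13. Under median scaling 15 of the 24 were higher. For genes of myostatin and activin signalling, which restrains muscle growth, 6 were higher and 3 lower with a median of 0.11 (0.046 without the first saline pool), and a 1.5-fold change was excluded for 9 of 9. The activin receptor Acvr2b differed by 0.16 and the signal transducer Smad2 by -0.12.

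Of 21 genes of atrophy, the proteasome and autophagy, 7 were higher and 14 lower (median -0.049, or -0.015 without the third saline pool), and a 2-fold change was excluded for 21 of 21. Usp14, a deubiquitinase of the proteasome, was lower in every 20E pool (6.49, 6.39 and 6.65 against 6.96, 6.70 and 6.73; difference -0.29). The metal-binding protein metallothionein 1 (Mt1) read 12.44, 12.26 and 12.42 against 12.66, 12.51 and 13.21 (difference -0.42), and without the third saline pool the difference was -0.21. Klf15, a glucocorticoid-induced regulator of amino acid breakdown, read 5.86, 5.86 and 5.66 against 5.74, 5.05 and 5.29 (difference 0.43, or 0.28 without the second saline pool). Map1lc3a, a protein of the autophagosome membrane, was higher by 0.21, with all 20E pools above the saline pools. Among 12 myogenic and satellite cell genes, Myod1, the master factor of muscle determination, read 8.56, 8.15 and 8.51 against 8.14, 8.40 and 8.03 (difference 0.22). The list had a median of 0.024, and a 1.5-fold change was excluded for 11 of 12, with Vcam1 the exception.

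Genes of glycogen use and of mitochondrial respiration had narrow bounds. A 1.5-fold change was excluded for 18 of 18 genes of glycogen and glycolysis (median -0.0097) and for 20 of 20 of mitochondrial respiration. Ndufa9, a subunit of respiratory complex I, was higher in every 20E pool (13.92, 13.84 and 13.84 against 13.60, 13.71 and 13.74). Its difference was 0.18, or 1.14-fold. Uqcrc1, of complex III, was higher by 0.12 and separated the groups as well, and 16 of the 20 genes were higher with a median of 0.049, or 0.032 without the second saline pool. Without the 3 raised arrays 12 of 20 were higher and the difference of Ndufa9 was 0.14. Among 20 genes of fatty acid use 10 were higher and 10 lower, with Fabp3, the fatty acid carrier of muscle, at 0.18 and the coactivators Ppargc1b and Ppargc1a at 0.18 and -0.22. Phka1, a subunit of phosphorylase kinase, differed by 0.16 on its brightest probe, and its 3 probes differed in sign.

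Steroid receptors, of interest for a steroid infusion, were measured for 14 of the 24 genes on the array, and a 1.5-fold change was excluded for 13. The oestrogen receptor alpha (Esr1) read 9.08, 8.84 and 9.08 with 20E and 8.90, 8.84 and 8.60 with saline (difference 0.22). The membrane oestrogen receptor Gper1 read 5.78, 6.07 and 5.46 against 5.95, 5.64 and 6.22 (difference -0.16), and the oxysterol receptor Nr1h3 differed by 0.11. The groups overlapped for all 14 receptors. The glucocorticoid receptor (Nr3c1) had the widest bound, 1.65-fold. Sterol synthesis genes numbered 6 higher and 6 lower, glucocorticoid targets 5 and 8, and clock genes 5 and 8. Srebf1, the regulator of lipid synthesis, read 7.03, 6.62 and 7.27 against 6.75, 6.71 and 6.62 (difference 0.28). The glucocorticoid-induced genes Dusp1, a phosphatase, and Zbtb16, a transcription factor, differed by -0.23 and 0.31 and overlapped between groups. The clock output gene Tef differed by -0.26 with overlapping groups. For calcium handling, Ryr1, the calcium release channel, differed by 0.12 and the calcineurin subunit Ppp3ca by 0.21.

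Early response and stress genes were lower for 11 of 14 (median -0.12), and none had an unadjusted p below 0.05. Without the third 20E pool 8 of 14 were lower (median -0.020). The transcription factor Fos read 8.07, 7.30 and 7.86 with 20E and 7.80, 8.32 and 8.66 with saline (difference -0.52). Atf3, a stress-induced factor, read 6.37, 5.92 and 5.80 against 5.72, 7.50 and 6.64, with the first saline pool below all 20E pools. Hspb1, a small heat shock protein, was lower in every 20E pool (10.99, 11.24 and 11.25 against 11.36, 11.40 and 11.29; difference -0.19). In a list of 9 genes induced by load or injury of muscle, written after values had been seen, 8 were lower (median -0.39). Without the second saline pool 7 of 9 were lower with a median of -0.15, and without the third saline pool 7 of 9 with -0.16. Ankrd1, a titin-binding ankyrin repeat protein induced by stretch and injury, read 6.84, 7.53 and 6.63 against 7.87, 8.54 and 7.53. Its difference was -0.98 (95% interval -1.68 to -0.28; limma, adjusted p = 0.9998), and without the 3 raised arrays -0.34. Rrad, a small GTPase that restrains calcium channels and rises after muscle injury, read 5.96, 5.57 and 5.74 against 5.67, 6.49 and 8.15, so that only the third saline pool lay far above the others, and without it the difference of -1.02 became -0.33. Without the first saline pool the Rrad difference was -1.56. Without the 3 raised arrays, which leaves the third saline pool alone of its group, it was -2.38. The mean level of this list was 8.36, 8.49 and 8.49 with 20E and 8.37, 9.10 and 9.21 with saline.

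Markers of other cell types moved by small amounts, and in pooled tissue fewer cells of a type and less RNA per cell cannot be told apart. Of 14 macrophage and leucocyte markers 8 were compared, and 8 of 8 were lower (median -0.29, or -0.19 without the third saline pool). The monocyte receptor Cd14 read 5.78, 5.40 and 5.48 against 5.77, 5.99 and 5.84 (difference -0.31), Csf1r, the receptor of the macrophage growth factor, 6.90, 6.84 and 6.73 against 6.87, 7.13 and 7.29, and the mannose receptor Mrc1 differed by -0.24. The mean level of the list was 6.88, 6.69 and 6.73 with 20E and 6.75, 7.23 and 7.32 with saline, so that the first saline pool lay within the 20E range. The same 2 saline pools were high in the load list, and the part of the leucocytes in those values was not tested.

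Smooth muscle markers were higher for 5 of 5 (median 0.22). Acta2, the smooth muscle actin, was higher in every 20E pool (11.10, 11.03 and 11.07 against 10.97, 10.80 and 10.77; difference 0.22), whereas Tagln read 4.94, 5.61 and 5.96 against 5.02, 4.89 and 5.24 (difference 0.46, or 0.23 without the third 20E pool). Endothelial markers were higher for 9 of 10 (median 0.13), and Pecam1 and Cldn5 of the vessel wall separated the groups with differences of 0.21 and 0.33. Schwann cell markers were higher for 4 of 4, led by the myelin protein Mbp (8.28, 8.77 and 8.07 against 8.07, 7.71 and 7.81; difference 0.51, or 0.31 without the second 20E pool). The other 2 probes of Mbp, both dim, differed by -0.45 and -0.038. Sox10, the transcription factor of Schwann cells, separated the groups with a difference of 0.36. Without the 3 raised arrays the median of the Schwann markers was 0.49, that of the endothelial markers 0.091 with 6 of 10 higher, and that of the smooth muscle markers 0.15 with 4 of 5 higher.

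Matrix genes were divided, with 7 of 13 higher. Col3a1, the chain of type III collagen, was lower in every 20E pool (6.11, 6.24 and 6.36 against 6.77, 6.61 and 6.59; difference -0.42), and so was fibronectin (Fn1; 7.29, 7.39 and 7.31 against 7.69, 7.55 and 7.57; difference -0.27). Col1a2, of type I collagen, lay the other way by 0.20 and also separated the groups. Neither Col3a1 nor Fn1 kept an unadjusted p below 0.05 with the hepatocyte level as a covariate, and neither did Myh1 or Ndufa9 among the higher genes. Haemoglobin alpha (Hba-a1), of red cells, was lower in every 20E pool (14.14, 13.72 and 14.41 against 14.67, 14.50 and 14.43; difference -0.44). Without the second 20E pool the difference was -0.26, and its unadjusted p was not below 0.05 there, under median scaling or without the 3 raised arrays. White adipocyte markers varied widely within groups: adiponectin (Adipoq) read 8.90, 7.79 and 8.13 against 9.27, 8.21 and 7.90, and leptin (Lep) had a bound of 2.82-fold. Of 8 skin and hair markers on the array, Krt10 alone was compared, and it differed by -0.033.

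No probe was called for a difference between the 20E effects of 15 and of 5 days (limma, 0 of 17716 probes, 0%, smallest adjusted p = 0.9999). Before adjustment, 596 probes (3.36%) lay below 0.05 for that difference. Barx2 was higher by 0.50 after 5 days and Usp9x and Wiz by 0.27 and 0.26. Plekha1 was higher by 0.15, Rragb lower by 0.087 and Poglut2 higher by 0.020. For Svs4 the 5-day difference was 1.10, in the opposite direction, and the difference between durations had an adjusted p of 0.9999 (limma).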

How the data were processed

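Per the file headers, the deposited signal table held non-normalized bead intensities and a detection p-value per probe and array, and per the submitters' processing notes BeadStudio 3.1.3 and limma were used, in roles that are not stated. The authors' log2 table, quantile-like with a floor of -1 by its values, served as an alternative and to match columns coded by letter to durations (rank correlation at least 0.976 with the own column, at most 0.899 with any other). Here, all 12 arrays were corrected for background by normexp with control statistics inferred from those p-values, raised by an offset of 16, quantile-normalized and taken to log2 (limma 3.58.1 in R 4.3.3). A model of 4 group means with 8 residual degrees of freedom was fitted, and p-values were adjusted over the 17716 probes by Benjamini-Hochberg. Replicates are pools, and p-values measure the spread between them. Gene symbols came from the platform annotation, updated by gene ID for 34807 of 34885 probes with 1 symbol (10378 probes are not listed). The brightest probe stood for a gene in a list. Named probes were the 10 each way with the smallest p among those detected on all 6 arrays, the 5 each way with the largest difference, the 5 each way with the largest detection bound, the 10 brightest, and in each list the 4 with the smallest p and the whole tissue check. Ttr, Apoa1, Igf1, Nr3c1, Lep, Vcam1, Ubxn8 and Slc7a11 were named after their values were seen. Probes and lists were chosen with earlier results of these data known. The code was tested on simulated data.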

Additional observations from a re-analysis of the deposited data

How the results depend on the processing

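The count of called probes was 0 under all 22 alternatives run, with a lowest adjusted p between 0.155 (without the third saline pool) and 1. The count of probes with a different effect at 15 and 5 days was 0 under the same alternatives except the fit of the 6 arrays of 15 days alone, which gives no such value. The share with an unadjusted p below 0.05 ranged from 3.144% to 5.938%, the latter with array weights, and from 3.663% to 4.386% when 1 pool was left out. A 2-fold change was excluded for 81.82% (the authors' log2 values) to 99.16% of probes and, with 1 pool left out, for 95.03% to 95.41%. A 1.5-fold change was excluded for 79.45% of probes, for 49.94% among running numbers 7 to 12, for 47.84% without the 3 arrays with raised hepatocyte transcripts, and for 71.21% to 72.14% with 1 pool left out. Under a level of 6 that share was 52.48%, against 97.92% with no background correction, 94.48% with an offset of 50, 6.835% on the authors' log2 values, 21.59% among running numbers 1 to 6, 17.82% among 7 to 12, 11.98% without the raised arrays, and 38.11% to 38.52% with 1 pool left out. The settings with fewer arrays widen every interval by construction, and a larger offset compresses differences of dim probes. Beyond 2-fold lay 0 higher and 15 lower probes, against 163 and 199 on the authors' log2 values, 0 and 10 under median scaling, 0 and 2 with no background correction, 2 and 21 without the raised arrays and 0 and 6 with the hepatocyte covariate. Gained and lost detection moved from 63 and 30 probes to 154 and 161 when detection meant a value above the authors' floor, and to 47 and 11 at a detection p below 0.01. With 1 pool left out they were 116 to 164 and 62 to 93, since 2 arrays then suffice on a side. Genes of the lists with an unadjusted p below 0.05 went from 9 to 6 when all probes of a gene were averaged. Svs5 turned to 0.5473 among running numbers 7 to 12, and the other 842 of 843 values of 39 named probes kept their direction and their side of the threshold. Fits with the replicate number as a block called 0 probes in limma, with 3.754% below an unadjusted 0.05 and a 1.5-fold change excluded for 78.53%. The labels state no pairing, and same-numbered pools deviated from their group means with correlations of -0.49, -0.049 and -0.59. The alternatives without the raised arrays and with the hepatocyte level as a covariate were chosen after seeing the data. Pools of 3 animals, 3 a group, and signal near background limit what dim probes can show.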
